A study of Mus musculus with 12 samples.

Results

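Glutathione transferases of the mu, pi and theta classes are described here in liver RNA of mice on a high-fat diet (HFD) and on regular chow (Chow). The 7 genes, Gstm3, Gstm2, Gstp1, Gstp-ps, Gstp3, Gstt1 and Gstt3, were taken by symbol from the 336 genes in the authors' deposited HFD against Chow table. No gene of that table has a log2 fold change smaller than 0.6 in size or an adjusted p above 0.0474, so the diet contrast itself chose the members. Their diet differences are therefore given as descriptions, with the spread between mice and with no test. The members nearest to these limits were Gstt1, with a log2 fold change of 0.65 in the authors' deposited table, and Gstp3, with an adjusted p of 0.04346 there. Genes beyond the limits were not analysed here.

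The study measured liver RNA in 12 mice, in 4 groups of 3. All were C57BL/6N mice deficient in PXR, the pregnane X receptor, and were 6 weeks old when the diets began. HFD mice and Chow mice ate their diet for 18 weeks, with no further treatment listed. Obese mice of the other groups were injected once daily for 4 days, with PCN, a steroid that activates PXR in rodents, at 50 mg/kg (HFD_PCN), or with 30% DMSO in corn oil (HFD_Vehicle). The labels give neither the sex of the mice nor the way the deficiency was made, and Nr1i2, the gene of PXR, is not among the genes held, so the genotype was not checked against the counts. Each library is named by the number of its mouse, which runs 659, 669 and 696 for HFD and 670, 695 and 707 for Chow.

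Glutathione transferases join the tripeptide glutathione to electrophilic compounds and so take part in the clearance of drugs, carcinogens and products of lipid peroxidation. The cytosolic enzymes are grouped into classes by sequence, and genes of a class usually lie side by side on a chromosome. In liver, several of the mu genes are known targets of the oxidative stress factor NRF2 and of the drug-sensing receptor CAR. Pi class protein in mouse liver is known to be more abundant in males than in females.

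The members differed in direction: mu and theta members were higher on HFD, while the pi members were split. Of the 7 members, 5 were higher and 2 were lower on HFD by the adjusted p in the authors' deposited table. Of all 336 listed genes, 64% were higher and 36% were lower, and together they made up 1.35% of about 24980 genes that the authors tested. In all 7 members the HFD mice lay wholly above or wholly below the Chow mice. The same held for 99.4% of all listed genes, so nothing about the members can be read from it. The median log2 ratio of group means, HFD over Chow, was 0.96 over the 5 higher members, beside 1.21 over all listed genes that were higher. It was -1.31 over the 2 lower members, beside -0.99 over all listed genes that were lower.

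**Figure D1:**
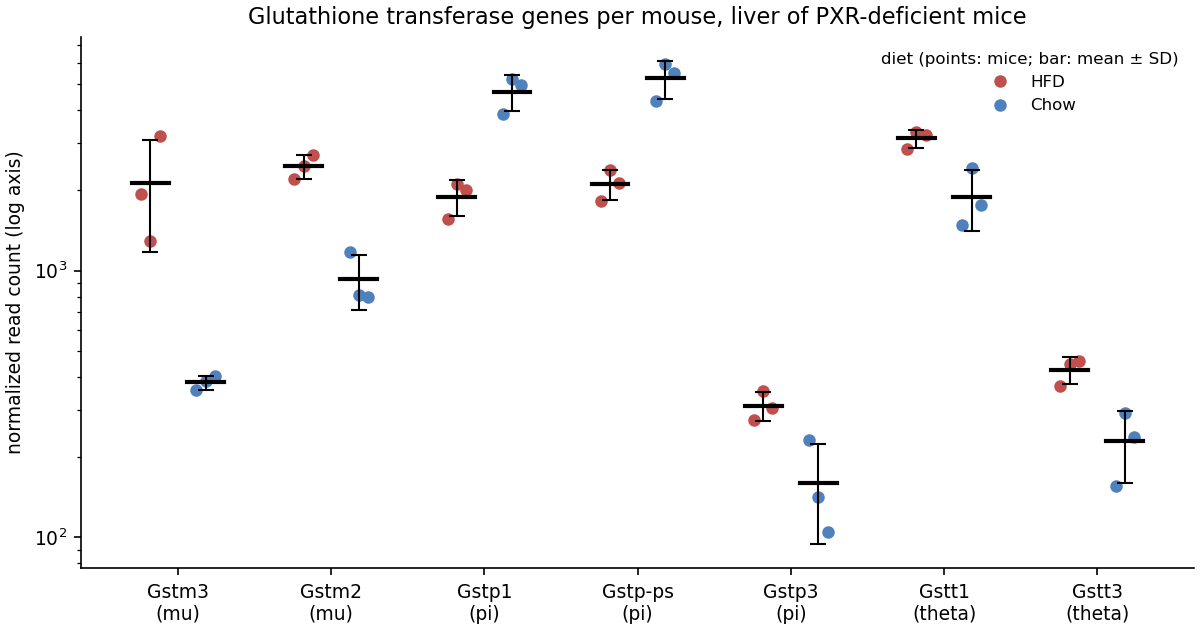
Normalized read counts (log axis) of the 7 members in each of the 3 HFD mice (left of each pair) and 3 Chow mice (right), with the mean and SD as bars. Gstp1 and Gstp-ps stand lower in HFD mice, the other 5 genes stand higher, and the groups of no gene overlap.

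The values below are normalized read counts, that is, the reads counted on a gene in a mouse divided by the size factor that the authors had used for that mouse. The factors ran from 0.829 to 1.14, the listed genes summed to between 547431 and 920106 reads per mouse, and member counts ran from 87 to 6225 reads. The table does not give the total depth of a library. In whole tissue, fewer cells that express a gene and less RNA per cell cannot be told apart. Of the marker lists checked, 6 of 20 stellate cell and fibrosis genes were among the listed genes, all higher, with summed normalized counts of 2328 to 4231 in HFD mice, against 977 to 1148 in Chow mice. Macrophage markers had 2 of 14 listed, Itgax and Mmp12, which summed to 71.2 to 119.3 in HFD mice, against 12.5 to 25.3 in Chow mice. Themis was the 1 of 12 lymphocyte markers listed, at 306 to 372 in HFD mice and 13.3 to 58.6 in Chow mice. A single gene thus stands for that list, and no change of lymphocytes can be read from it. Beside these counts stand the 1.35% of all genes tested that are listed and the 64% of listed genes that were higher. Hepatocyte (18 genes), cholangiocyte (9), endothelial (9) and erythroid (6) lists had 0 members among the listed genes, so their levels were not checked here. The part of these cell types in the values below was not tested.

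The mu class was represented by Gstm3 and Gstm2, which sit on the minus strand of chromosome 3 with 12.4 kb between them. They were the higher members with the largest differences, and Gstm3 was also the most uneven among HFD mice. Gstm3 (ENSMUSG00000004038, chr3:107963696-107969283 on GRCm38), which encodes a mu class enzyme of mouse liver, had 1942, 1295 and 3189 normalized counts in HFD mice 659, 669 and 696, against 357, 386 and 402 in Chow mice 670, 695 and 707. The Chow mice were close to each other, whereas HFD mouse 696 had 2.46 times the count of HFD mouse 669, and even the lowest HFD mouse lay 3.22 times above the highest Chow mouse. The means were 2142 ± 963 in HFD mice and 381 ± 23.0 in Chow mice (SD, n = 3 each), a ratio of 5.62 and a log2 ratio of 2.49. The coefficient of variation was 45.0% in HFD mice and 6.02% in Chow mice. On the scale of mean log2 values the difference was 2.39 (SE 0.38), while the authors' deposited table gives 2.01 (SE 0.23) with an adjusted p of 2.47e-15. Among the 215 higher genes it held rank 5 by the fold change of the authors' deposited table and rank 23 by the ratio of group means.

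Gstm2 (ENSMUSG00000040562, chr3:107981702-107986453), its neighbour in the mu cluster, had 2213, 2475 and 2725 normalized counts in the 3 HFD mice, against 1180, 809 and 795 in the 3 Chow mice. Here the unevenness lay in the other group: Chow mouse 670 stood above the other 2 Chow mice, and the HFD mice were close together. Its means were 2471 ± 256 in HFD mice and 928 ± 218 in Chow mice (SD, n = 3 each), a 2.66-fold difference and a log2 ratio of 1.41. The difference of mean log2 values was 1.43 (SE 0.21), and the authors' deposited table gives 1.27 (SE 0.17, adjusted p = 7.09e-10) for it.

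Since the counts of a mouse share its size factor, the ratio of 2 genes within a mouse needs no scaling. The ratio of Gstm3 to Gstm2 counts was 0.878, 0.523 and 1.17 in HFD mice 659, 669 and 696, against 0.302, 0.477 and 0.505 in Chow mice 670, 695 and 707. All HFD mice lay above all Chow mice, but HFD mouse 669 exceeded Chow mouse 707 by a factor of only 1.04. The mean ratio was 0.857 ± 0.324 in HFD mice and 0.428 ± 0.110 in Chow mice (SD, n = 3 each). Gstm3 thus made up a larger part of the counts of these 2 genes on HFD, to an extent that differed between the HFD mice. Of the 50-base stretches of the Gstm3 transcript, 28.8% occur exactly in other genes, Gstm1 and Gstm6 among them, against 9.36% for Gstm2. How reads of such stretches were counted is not known. Together the 2 mu members summed to 4613 ± 1143 normalized counts in HFD mice and 1310 ± 197 in Chow mice (SD, n = 3 each), 3.52-fold higher on HFD.

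**Figure D2:**
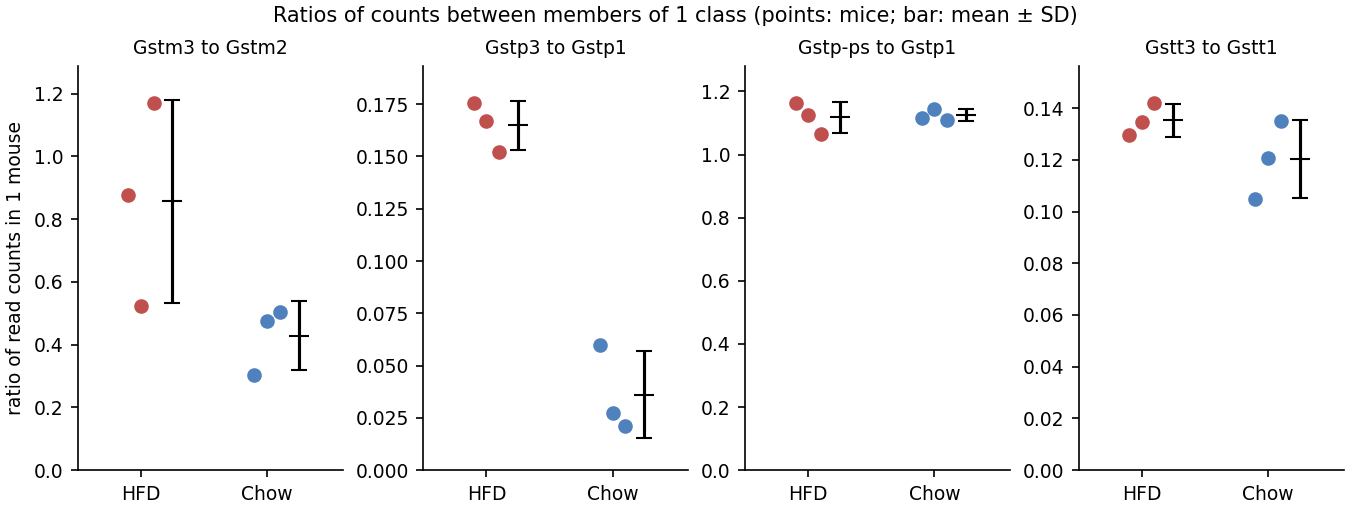
Ratio of the read counts of 2 genes within each mouse, for 3 HFD mice (left) and 3 Chow mice (right) in each panel, with the mean and SD beside the points and each axis starting at 0. Gstp3 to Gstp1 separates the diets (0.165 ± 0.0118 in HFD mice, 0.0361 ± 0.0208 in Chow mice), while Gstp-ps to Gstp1 and Gstt3 to Gstt1 overlap between them. The separation for Gstp3 to Gstp1 follows from the opposite diet differences on which these 2 genes were chosen.

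In the pi class, Gstp1 and the pseudogene Gstp-ps were lower on HFD and Gstp3 was higher. The genes of this class differ greatly in how far their sequences can be told apart, which bears on read counts, so the same 90 coding bases are shown first for 3 of them and for Gstp2, a pi gene beside Gstp1 that is not among the listed genes. The window covers coding bases 241 to 330 of Gstp1 and, in each gene, lies within 1 exon on the minus strand: chr19:4036694-4036783 for Gstp1, chr1:192074123-192074212 for Gstp-ps, chr19:4040988-4041077 for Gstp2 and chr19:4058092-4058181 for Gstp3 (GENCODE M21 transcripts on GRCm38). Capitals mark bases that differ from Gstp1.
Gstp1: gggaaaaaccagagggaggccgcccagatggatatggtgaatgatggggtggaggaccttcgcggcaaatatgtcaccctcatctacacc
Gstp-ps: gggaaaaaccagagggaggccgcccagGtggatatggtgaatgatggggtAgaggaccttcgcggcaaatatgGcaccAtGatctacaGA
Gstp2: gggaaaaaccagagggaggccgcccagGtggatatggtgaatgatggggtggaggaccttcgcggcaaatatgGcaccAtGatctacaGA
Gstp3: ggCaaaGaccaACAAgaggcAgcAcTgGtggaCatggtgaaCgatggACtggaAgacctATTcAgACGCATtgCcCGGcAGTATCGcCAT

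In this window Gstp-ps differed from Gstp1 at 7 bases, Gstp2 at 6 and Gstp3 at 39. Gstp-ps and Gstp2 differed from each other at 1. Over 628 aligned coding bases Gstp-ps was 97.6% identical to Gstp1, with an identical run of 300 bases, and 99.2% identical to Gstp2. Gstp3 was 71.7% identical to Gstp1 over 630 bases, with no identical run over 35 bases.

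Gstp1 (ENSMUSG00000060803, chr19:4035407-4037921), the main pi class enzyme gene of mouse liver, had 1570, 2115 and 2003 normalized counts in HFD mice, against 3864, 5218 and 4957 in Chow mice. The highest HFD mouse lay well below the lowest Chow mouse, and the spread was alike in both groups. Means were 1896 ± 288 in HFD mice and 4679 ± 718 in Chow mice (SD, n = 3 each), 2.47-fold lower on HFD. The log2 ratio was -1.30 (SE 0.19 on the log2 scale), and -1.18 (SE 0.17, adjusted p = 1.17e-09) in the authors' deposited table.

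Gstp-ps (ENSMUSG00000103653, chr1:192073820-192074450) is annotated as a processed pseudogene, a copy of a spliced transcript, and lies within Traf5 on the same strand without touching its exons. It had 1826, 2380 and 2133 normalized counts in HFD mice, against 4317, 5976 and 5505 in Chow mice. The order of the mice was the same as for Gstp1, with HFD mouse 659 and Chow mouse 670 lowest in their groups. Its means of 2113 ± 277 in HFD mice and 5266 ± 855 in Chow mice (SD, n = 3 each) differed 2.49-fold, with a log2 ratio of -1.32, and the authors' deposited table gives -1.20 (SE 0.16, adjusted p = 2.96e-10).

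The ratio of Gstp-ps to Gstp1 counts was 1.16, 1.13 and 1.06 in HFD mice and 1.12, 1.15 and 1.11 in Chow mice. The groups overlapped, and the means were 1.12 ± 0.0497 in HFD mice and 1.12 ± 0.0185 in Chow mice (SD, n = 3 each). Of the 50-base stretches of the Gstp1 transcript, 62.3% occur exactly in Gstp2 and 45.6% in Gstp-ps, and 71.1% of those of Gstp-ps occur in Gstp2 and 60.5% in Gstp1. In the sources used here, neither the read length nor the handling of reads that fit several genes is given. The counts of Gstp1 and Gstp-ps are thus uncertain as to which gene gave the reads, and their lower values on HFD cannot be taken as 2 separate observations. How many reads fell on stretches found in 1 gene only was not examined. Summed, the pair had 4009 ± 561 normalized counts in HFD mice and 9945 ± 1571 in Chow mice (SD, n = 3 each), 2.48-fold lower on HFD.

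**Figure D3:**
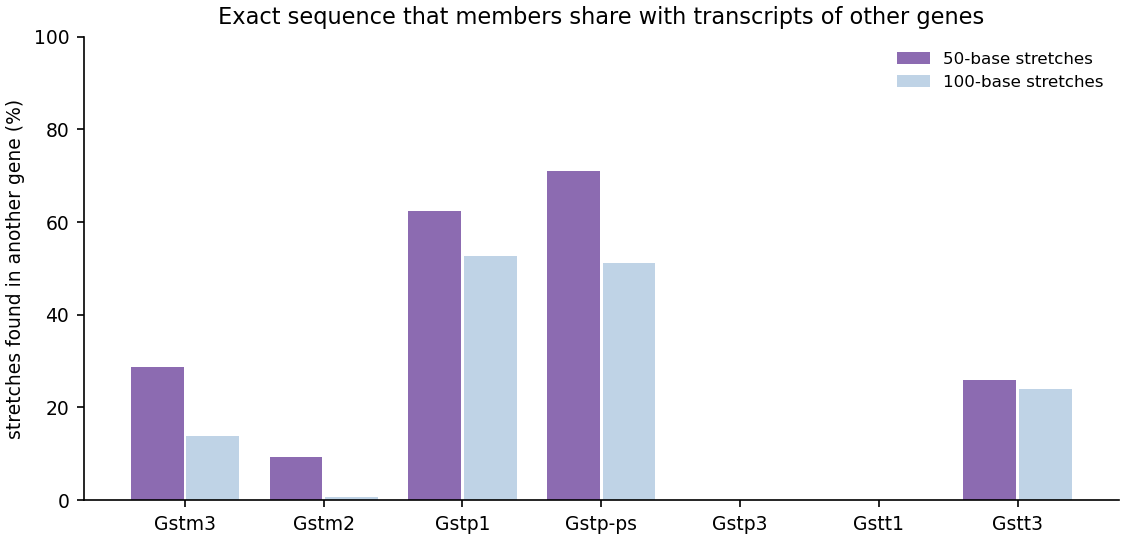
Percent of all 50-base and 100-base stretches of each member's transcript that occur exactly in a transcript of another gene. Gstp1 (62.3% and 52.8%) and Gstp-ps (71.1% and 51.1%) share most of theirs. Gstm3 (28.8% and 13.8%), Gstt3 (26.0% and 23.9%) and Gstm2 (9.36% and 0.622%) share a smaller part, and Gstp3 and Gstt1 none.

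Gstp3 (ENSMUSG00000058216, chr19:4057477-4059446), a further pi class gene 19.6 kb from Gstp1 on the same strand, went the other way. It had 276, 353 and 305 normalized counts in HFD mice, against 232, 142 and 105.0 in Chow mice. The groups did not overlap, but Chow mouse 670 came near to the HFD mice, the lowest of which was 1.19 times higher. Means were 311 ± 39.1 in HFD mice and 159.5 ± 65.1 in Chow mice (SD, n = 3 each), 1.95-fold higher on HFD, with a log2 ratio of 0.96 and a difference of mean log2 values of 1.03 (SE 0.35). For Gstp3 the authors' deposited table gives 0.77 (SE 0.23).

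Within each mouse, Gstp3 counts were 0.176, 0.167 and 0.152 of Gstp1 counts in HFD mice 659, 669 and 696, against 0.0599, 0.0272 and 0.0212 in Chow mice 670, 695 and 707. HFD mice were tightly grouped, far above all Chow mice, and Chow mouse 670 was the highest of its group. Gstp3 and Gstp1 were both chosen on the diet contrast, and differ in opposite directions without overlap. Their ratio therefore had to separate the diets, and that it does so is no separate result. The mean ratio was 0.165 ± 0.0118 in HFD mice and 0.0361 ± 0.0208 in Chow mice (SD, n = 3 each), 4.57-fold higher on HFD and 6.81-fold without Chow mouse 670. None of the 50-base stretches of Gstp3 occurs in a transcript of another gene, unlike those of Gstp1. All 3 pi members together summed to 4320 ± 598 normalized counts in HFD mice and 10105 ± 1515 in Chow mice (SD, n = 3 each), 2.34-fold lower on HFD, so the small count of Gstp3 hardly moved the sum.

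The 250 bases before the start of Gstp1 and Gstp3, pi genes with opposite diet differences, are shown with 2 motifs in capitals. They are TGAGTCA, the binding site of AP-1 factors that is also the core of many NRF2 sites, and TATAA, the TATA box core. Sequences are from RefSeq (GRCm38.p6, minus strand), chr19:4037913-4038162 for Gstp1 and chr19:4059448-4059697 for Gstp3.
Gstp1: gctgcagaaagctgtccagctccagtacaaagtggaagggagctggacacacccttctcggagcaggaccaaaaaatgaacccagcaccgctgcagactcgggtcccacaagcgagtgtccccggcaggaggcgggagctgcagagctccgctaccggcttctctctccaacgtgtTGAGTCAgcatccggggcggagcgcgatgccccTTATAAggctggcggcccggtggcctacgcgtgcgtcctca
Gstp3: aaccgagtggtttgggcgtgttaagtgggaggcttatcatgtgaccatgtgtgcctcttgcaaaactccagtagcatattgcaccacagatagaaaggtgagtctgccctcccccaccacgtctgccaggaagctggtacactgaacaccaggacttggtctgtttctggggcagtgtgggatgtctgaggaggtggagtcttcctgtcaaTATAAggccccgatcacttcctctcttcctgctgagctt

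Gstp1 held TGAGTCA starting 74 bases before its start and TATAA 40 bases before it, with an overlapping match of TATAA on the other strand 1 base further up. Gstp3 held TATAA 39 bases before its start and no TGAGTCA. On both strands of the same window, TGAGTCA occurred in 4.46% of 32851 RefSeq promoters, TATAA in 22.8%, and the antioxidant response element core TGACNNNGC in 10.2%. Promoter entries were held for 6 of the 7 members, all but Gstp-ps. Among them TGAGTCA was found in Gstp1 alone, TATAA in Gstp1 and Gstp3 alone, and TGACNNNGC in 0. Gstp2, which is not among the listed genes, also held TGAGTCA and TATAA in this window. The presence of these motifs thus does not set Gstp1 apart from Gstp2. The 0 for TGACNNNGC covers that spelling only, and no wider form of this core was searched. These matches describe letters in a window and show nothing about binding.

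Theta class enzymes act on small halogenated compounds among others, and their genes Gstt1 and Gstt3 lie 2.40 kb apart on the minus strand of chromosome 10. Both were modestly higher on HFD, with the smallest gaps between the groups besides Gstp3. Gstt1 (ENSMUSG00000001663, chr10:75783813-75798584) had 2849, 3313 and 3239 normalized counts in HFD mice, against 1480, 2429 and 1769 in Chow mice. Chow mouse 695 lay closest to the HFD group, the lowest of which was 1.17 times higher. Means were 3134 ± 249 in HFD mice and 1893 ± 486 in Chow mice (SD, n = 3 each), 1.66-fold higher on HFD, with a difference of mean log2 values of 0.76 (SE 0.22). The authors' deposited table gives Gstt1 a log2 fold change with an SE of 0.18 and an adjusted p of 0.0227.

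Gstt3 (ENSMUSG00000001665, chr10:75774115-75781414) had 369, 446 and 460 normalized counts in HFD mice, against 155, 293 and 239 in Chow mice. The mice stood much as for Gstt1: HFD mouse 659 was the lowest of its group, Chow mouse 695 the highest of the other, and the gap between them was 1.26-fold. Means were 425 ± 49.1 in HFD mice and 229 ± 69.3 in Chow mice (SD, n = 3 each), 1.85-fold higher on HFD, with a difference of mean log2 values of 0.93 (SE 0.29). The authors' deposited table gives a log2 fold change of 0.75 (SE 0.21, adjusted p = 0.02341). Gstt3 overlaps Gm20441, a gene annotated on the same strand, over 6840 bases with shared exons, so its count may hold reads of that gene or lack some of its own.

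The ratio of Gstt3 to Gstt1 counts was 0.129, 0.135 and 0.142 in HFD mice and 0.105, 0.121 and 0.135 in Chow mice. Its mean was 0.135 ± 0.00632 in HFD mice and 0.120 ± 0.0151 in Chow mice (SD, n = 3 each), and the groups overlapped. The theta pair summed to 3559 ± 297 normalized counts in HFD mice and 2122 ± 552 in Chow mice (SD, n = 3 each), 1.68-fold higher on HFD.

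Set against each other within a mouse, the summed members of the classes differed most between mu and pi. The sums hold only the members, 2 of 8 mu, 3 of 4 pi and 2 of 4 theta genes looked for, all chosen on the diet contrast. Their ratios thus describe these members and not whole classes, and a difference of the ratios between diets is no separate result. The summed mu count was 1.13, 0.778 and 1.33 of the summed pi count in HFD mice 659, 669 and 696, against 0.183, 0.105 and 0.113 in Chow mice 670, 695 and 707, a ratio of means of 8.07. Per kb of exon, the summed mu count was 0.665, 0.445 and 0.809 of the summed pi count in those HFD mice, against 0.102, 0.0597 and 0.0648 in those Chow mice. The pi sum per kb was thus above the mu sum in all 6 mice, and by less in each HFD mouse than in any Chow mouse. The pi sums rest mainly on Gstp1 and Gstp-ps, with the doubt about shared reads given above. The theta to pi ratio was 0.876, 0.775 and 0.833 in HFD mice and 0.194, 0.240 and 0.190 in Chow mice, 3.98-fold higher on HFD. Mu relative to theta was 1.97-fold higher on HFD. All 7 members together came to 12492 ± 1509 normalized counts in HFD mice and 13536 ± 1845 in Chow mice (SD, n = 3 each), and on this sum the groups overlapped.

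Levels of different genes were compared per kb of exon, counting every base in any annotated exon of a gene. For some genes that is far longer than the transcript used for the sequence comparisons: Gstm2 (1679 against 1064 bases), Gstp1 (1548 against 821) and Gstt3 (3842 against 1880). For Gstm3 (1311) and Gstp-ps (631) both lengths are the same. In HFD mice the order was Gstp-ps with 3349 ± 440 normalized counts per kb, Gstt1 with 2051 ± 163, Gstm3 with 1634 ± 734, Gstm2 with 1472 ± 152, Gstp1 with 1225 ± 186, Gstp3 with 343 ± 43.1 and Gstt3 with 111 ± 12.8 (SD, n = 3). The neighbours from Gstt1 down to Gstp1 overlapped between mice, and the other steps did not. Chow mice had the order Gstp-ps with 8345 ± 1355 normalized counts per kb, Gstp1 with 3023 ± 464, Gstt1 with 1239 ± 318, Gstm2 with 553 ± 130, Gstm3 with 291 ± 17.5, Gstp3 with 176 ± 71.7 and Gstt3 with 59.6 ± 18.0 (SD, n = 3), and no neighbours overlapped. By these means Gstp1 stood in the fifth place in HFD mice and in the second in Chow mice. Per kb, the ratio of Gstm3 to Gstm2 was 1.12, 0.670 and 1.50 in HFD mice 659, 669 and 696, against 0.387, 0.611 and 0.647 in Chow mice 670, 695 and 707. By exon length, Gstm3 was thus below Gstm2 in all Chow mice and in HFD mouse 669, and above it in the other 2 HFD mice. This crossing depends on the length chosen. It is lost with the transcript lengths of 1311 bases for Gstm3 and 1064 for Gstm2, by which Gstm3 lies below Gstm2 in every mouse. The order of the genes, the place of Gstp1 included, also depends on the length chosen, and was not worked out with transcript lengths. The levels and places of both Gstp1 and Gstp-ps carry the doubt about shared reads given above.

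**Figure D4:**
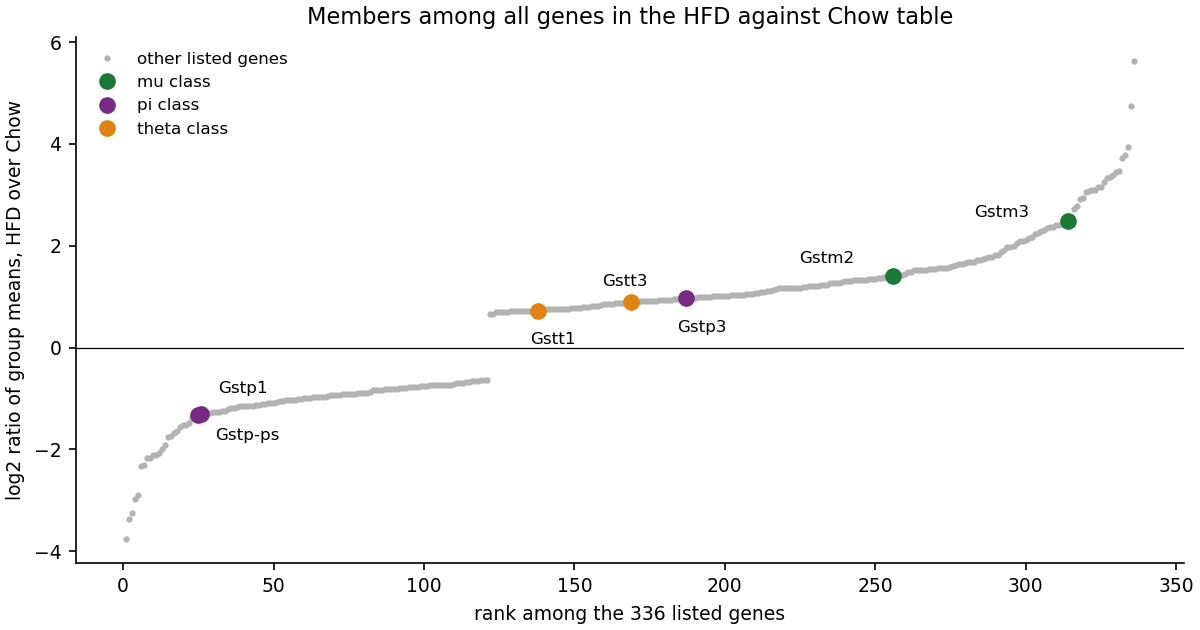
Log2 ratio of group means (HFD over Chow) of all 336 listed genes in rank order, with the 7 members coloured by class. In the 7 listed genes (none a member) with no reads in some mouse, 0.5 was added to the normalized counts. Gstm3 (2.49) holds rank 23 among the higher genes, Gstt1 (0.73) stands near their lower end, and Gstp1 (-1.30) and Gstp-ps (-1.32) side by side among the lower genes; the gap around 0 comes from the authors' selection.

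How far the counts were scaled changed the size of the differences and the sign of none. The median log2 ratio over the listed genes was 0.89 with the authors' size factors. It moved by 0.13 with raw counts, by -0.63 with edgeR's TMM factors and by -0.65 with DESeq2's size factors, both of which were computed on the listed genes only. Because those genes were selected for having changed, and more of them were higher than lower, such factors are centred on changed genes. Under TMM, Gstt1 had a log2 ratio of 0.10 and Gstt3 of 0.26, beside a median of 0.26 over the listed genes, while Gstp3 had 0.33, Gstm3 1.86 and Gstp1 -1.93.

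**Figure D5:**
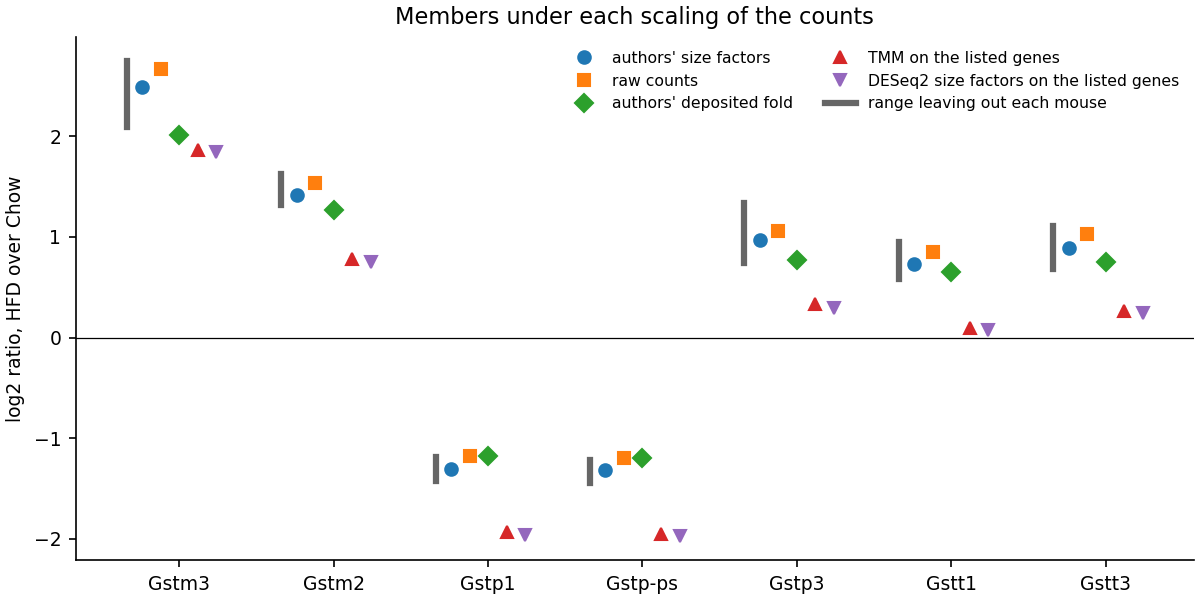
Log2 ratio, HFD over Chow, of each member with the authors' size factors, raw counts, the authors' deposited fold change, TMM factors and DESeq2 size factors, and as a grey bar the range when each mouse is left out in turn. No member crosses 0 under any of these, and Gstt1 comes nearest to it (0.08 with DESeq2 size factors).

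Of 31 glutathione transferase genes looked for, the 7 members were the ones listed: 2 of 8 mu genes, 3 of 4 pi genes, 2 of 4 theta genes, 0 of 6 alpha genes and 0 of 9 genes of the other classes. Beside these counts stands the 1.35% of all genes tested that the table lists, at which 0 listed genes in a short list is unremarkable. The members were chosen because they are transferases in this table, so no excess over that share can be read from the 7. A gene not listed is a gene outside the authors' limits or outside the rows held, and says nothing of its level. Among 22 genes of glutathione synthesis, recycling and breakdown, 2 were listed and both were lower on HFD. Gsr, glutathione reductase, which regenerates reduced glutathione and is itself a known NRF2 target, had 1394 ± 82.8 normalized counts in HFD mice and 2193 ± 285 in Chow mice, 1.57-fold lower. Cbs, the cystathionine beta-synthase that opens the route from homocysteine to cysteine, had 5127 ± 791 in HFD mice and 8470 ± 2150 in Chow mice (SD, n = 3 each), 1.65-fold lower. Transporters of glutathione conjugates had 0 of 7 listed.

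Other lists of drug and stress response genes were counted too. Of 25 NRF2 target genes on a list without glutathione transferases and without Gsr, 0 were listed, a count from which nothing can be read at a share of 1.35%. Of 40 CAR and PXR target genes that are not glutathione transferases, 4 were listed, 3 of them higher and 1 lower on HFD. Of all listed genes 64% were higher, so nothing can be read from the direction of these 4. The list was drawn up with earlier results of these data known, so no excess over the 1.35% can be read either. The cause of their differences was not tested. Cyp2a4, a steroid hydroxylase, had 269.8 ± 102 normalized counts in HFD mice and 24.6 ± 1.85 in Chow mice (SD, n = 3 each). Slco1a4, an organic anion uptake carrier, had 671 ± 37.7 in HFD mice and 149.9 ± 67.5 in Chow mice (SD, n = 3 each). Cyp2b13 had 24.4 ± 19.4 in HFD mice (SD, n = 3) and no reads in the 3 Chow mice. Cyp1a2, which metabolises caffeine and is also controlled by the aryl hydrocarbon receptor, was 2.12-fold lower on HFD, at 2018 ± 564 in HFD mice and 4271 ± 1723 in Chow mice (SD, n = 3 each). Of 26 sulfotransferases and glucuronosyltransferases, which carry out other conjugations, Sult1b1 was the 1 listed, 2.42-fold higher on HFD at 409.7 ± 140.5 in HFD mice and 169 ± 77.8 in Chow mice (SD, n = 3 each).

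For the most abundant member of each class, the listed genes with the most similar values were found by the Euclidean distance over the 6 mice between centred log2(normalized count + 1) values, among 307 genes. Nearest to Gstm2 were Acad12 (distance 0.233), Treh, which encodes trehalase (0.364), and Nrg4, which encodes the secreted factor neuregulin 4 (0.529), against a median of 1.55 over the 307 genes. Gstm3 was no nearer to Gstm2 than that median, at 1.55. Nearest to Gstp-ps were Tuba4a, an alpha-tubulin gene (0.429), Slco2a1, a prostaglandin transporter gene (0.515), and Inhbc, an inhibin subunit gene (0.574), against a median of 2.74, while Gstp1 lay at 0.0977. For Gstt1 they were Marveld1 (0.229), Lect2, a secreted liver protein gene (0.236), and Pparg, a nuclear receptor gene of fat storage (0.293), against a median of 1.76, and Gstt3 lay at 0.346. These distances describe 6 mice that the diets already split, and many listed genes share that split.

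In the second comparison, PCN against vehicle in PXR-deficient mice on HFD, the authors' deposited table holds 33 genes. No gene there has a log2 fold change smaller than 0.6 in size or an adjusted p above 0.09547 in the authors' fit. None of the 7 members is among them, nor is any other of the 31 glutathione transferase genes. With so few genes listed, that 0 is unremarkable, and no absence of a PCN difference can be read from it. The share of all genes tested that these 33 make up was not worked out. The values of the members in HFD_PCN and HFD_Vehicle mice were not analysed here, so no size or interval of a PCN difference can be given for them.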

How the data were processed

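Liver RNA libraries of 12 mice, 3 per group, were grouped by their labels. HISAT2, HTSeq, DESeq2 and the build GRCm38 (mm10) are named in the submitters' processing notes. Their versions and roles, the strand setting and the read length are not given in those notes. Per the file headers, the authors deposited raw counts of reads for each gene and mouse, with a mean, a log2 fold change, an SE, a p-value and an adjusted p-value of their own. Each table holds selected genes only; 0 columns lacked a sample. The authors' mean column was solved for the size factor of each mouse (largest gap 0.00509 counts). Ratios, class sums and distances were computed with Python 3.11.15 and pandas 2.3.3. The call of higher or lower is the authors' adjusted p under 0.05, since only that fit saw all genes. edgeR 4.0.16 (quasi-likelihood, tried on simulated data) and DESeq2 1.42.0 in R 4.3.3 were alternatives. They were adjusted over the number of genes the authors tested (edgeR with TMM over the listed genes). That number was inferred from the authors' p-values and adjusted p-values. All 336 IDs were found in GENCODE M21, whose transcripts gave exon lengths and shared stretches; 5 of 7 members had identical coordinates, and those printed are the authors'. Members, gene lists and tests were chosen with earlier results of these data known. Named are the 7 members, the listed genes of the glutathione and drug-metabolism lists, and the 3 nearest genes per class without a predicted name. The labels do not say that mice came from separate cages or litters, and the authors' p-values measure the spread between these mice.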

Additional observations from a re-analysis of the deposited data

How the results depend on the processing

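No alternative turned the direction of a member. With TMM over the listed genes the log2 ratios of HFD to Chow were 1.86 (Gstm3), 0.78 (Gstm2), -1.93 (Gstp1), -1.95 (Gstp-ps), 0.33 (Gstp3), 0.10 (Gstt1) and 0.26 (Gstt3). With DESeq2 size factors they were 1.84, 0.75, -1.96, -1.97, 0.29, 0.0776 and 0.24 in the same order. Both shift all values because they were computed on genes selected for having changed. For all 7 members the authors' deposited log2 fold change was closer to 0 than the ratio of group means with the authors' size factors. Only for Gstm3 (2.01 against 2.49) was the gap beyond the spread between mice. The cause of these gaps was not tested. The 7 members without overlap became 4 with TMM, under which the share of all listed genes without overlap was 65.8%. Leaving out each mouse in turn gave 2.08 to 2.75 for Gstm3, 1.31 to 1.62 for Gstm2, -1.42 to -1.18 for Gstp1, -1.44 to -1.22 for Gstp-ps, 0.74 to 1.33 for Gstp3, 0.58 to 0.95 for Gstt1 and 0.68 to 1.11 for Gstt3, and 7 members without overlap each time, as were 99.4% to 100% of the listed genes. Raw counts and mean log2 values moved no member's ratio beyond the spread between mice.

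The 5 members called higher became 2 at an adjusted p under 0.01, 2 at a deposited log2 fold change of at least 1, 2 by edgeR with TMM, 1 by DESeq2 and 1 by edgeR with the authors' size factors, with or without its filter on low counts. The shares of all listed genes called higher were 38.7% and 27.4% with the stricter limits, 20.3% by edgeR with TMM and 4.46% by DESeq2. That 1 was Gstm3 (edgeR adjusted p = 0.0405, log2 2.49, SE 0.32, higher in 3 of 3 HFD mice; 2.42% of 331 genes fitted were called higher and 0.302% lower). The edgeR count ranged from 0 to 1 when a mouse was left out, being 1 only without HFD mouse 669. The 2 members called lower stayed 2 with the stricter limits, with edgeR on TMM and with DESeq2. The shares of all listed genes called lower were 22.6% and 10.4% with the stricter limits, 36.1% by edgeR with TMM and 36.0% by DESeq2. Under the authors' adjusted p it was 36%, so with these 2 refits nothing particular to the members can be read. Their number became 0 by edgeR with the authors' size factors, with or without its filter and without each mouse in turn. The unadjusted p was under 0.05 for all 331 genes of that edgeR fit, members included, because the genes had been selected on the same counts. With DESeq2 it was so for 60.7% of the listed genes and 4 of the 7 members. No paired analysis was possible because the groups share no mouse numbers. Total library depth is unknown, and with 3 mice per group a single mouse moved the calls.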
